A study of Mus musculus with 8 samples.

Results

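The genes described here are 10 of the 16432 genes listed for these cells, chosen by name: Acan, Hapln1, Vcan, Bgn, Dcn, Fmod, Prelp, Epyc, Chad and Prg4. They encode the large proteoglycan aggregate of cartilage, its link protein, and leucine-rich and lubricating proteins of the same matrix. All 10 were listed and all 10 passed the filter on low values. RNA was sequenced from chondrocytes of the sternum of C57BL/6 mouse embryos at embryonic day 18.5, freed from the tissue with proteases and collagenase IV. Col2a1Cre;Idh1 fl/+ cells (n = 3 libraries, called Cre-Idh1 cells here) carry a Cre recombinase that by its name is driven from Col2a1, the type II collagen gene that cartilage cells express, and 1 floxed Idh1 allele; the series title describes chondrocytes that express mutant Idh1. Col2a1Cre cells carry the recombinase alone (n = 3, the Cre control) and Idh1 fl/+ cells carry the floxed allele alone (n = 2, the floxed control). The series design names fl/fl mice where the labels of the samples, followed here, give fl/+. The share of cells in which the allele was recombined was not measured. The labels do not tie libraries to embryos. Because Cre-Idh1 cells and the Cre control each include libraries of both sexes, each of these groups came from more than 1 embryo, but the p-values reflect only variation among these samples.

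Cartilage resists compression because aggrecan, a core protein with many chondroitin sulfate and keratan sulfate chains, is held on hyaluronan in great number by link protein and draws water into the matrix. Small leucine-rich proteoglycans instead lie on collagen fibrils, where they affect how fibrils assemble and bind growth factors such as TGF-beta. Chondroadherin is a leucine-rich protein of cartilage that binds collagen and cells, and lubricin, the product of Prg4, lubricates the joint surface.

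Each library held 31860422 to 44988540 reads in listed genes, and Col2a1 alone took 15.9% to 21.3% of them, the first rank in every library. The 10 genes together took 1.85% to 2.06% of the reads in Cre-Idh1 cells, 2.17% to 2.19% in the Cre control and 2.20% to 2.26% in the floxed control. Normalized counts of Idh1, which do not separate the alleles, were 3465 to 3948 in Cre-Idh1 cells, 3624 to 3991 in the Cre control and 2263 to 2452 in the floxed control. Esr1, the estrogen receptor alpha gene, read 1599 to 2529 in the 6 libraries with Cre and 105 to 117 in the 2 without. Xist and Y-linked genes marked 3 libraries as female (replicate 1 of the Cre-Idh1 cells, replicates 1 and 3 of the Cre control) and 5 as male.

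Against the Cre control, Prelp, Fmod and Chad fell in Cre-Idh1 cells and Acan did not pass the test in any processing tried. Of the 10 genes 3 fell, 0 rose and 7 did not pass at an adjusted p under 0.05 (limma, Benjamini-Hochberg over all 14851 genes tested). Over all genes tested 9.39% fell and 9.8% rose. The median log2 fold change of the 10 genes was −0.41, and that of all genes −0.0092. In 6 of the 10 all Cre-Idh1 libraries lay below all Cre control libraries, which held for 20.9% of all genes. In 1, Acan, they all lay above, which held for 20.1%. Against the floxed control Chad, Fmod, Prelp and Epyc fell, 4 of the 10, where 6.96% of the 15212 genes tested fell and 7.47% rose. There the median log2 fold change was −0.52 for the 10 genes and 0.0020 for all, and 9 of the 10 lay below both floxed libraries in every Cre-Idh1 library, as did 26.7% of all genes. The calls against the floxed control rest on its 2 libraries: without replicate 1 none of the 4 passed, and without replicate 2 Prelp alone did. Leaving out Cre-Idh1 replicate 2 also cost Fmod and Epyc their calls, leaving out replicate 1 that of Epyc, and without replicate 3 Vcan and Prg4 passed as well. Both comparisons share the Cre-Idh1 libraries. In bulk RNA, fewer cells of a type and less RNA per cell cannot be told apart.

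**Figure D1:**
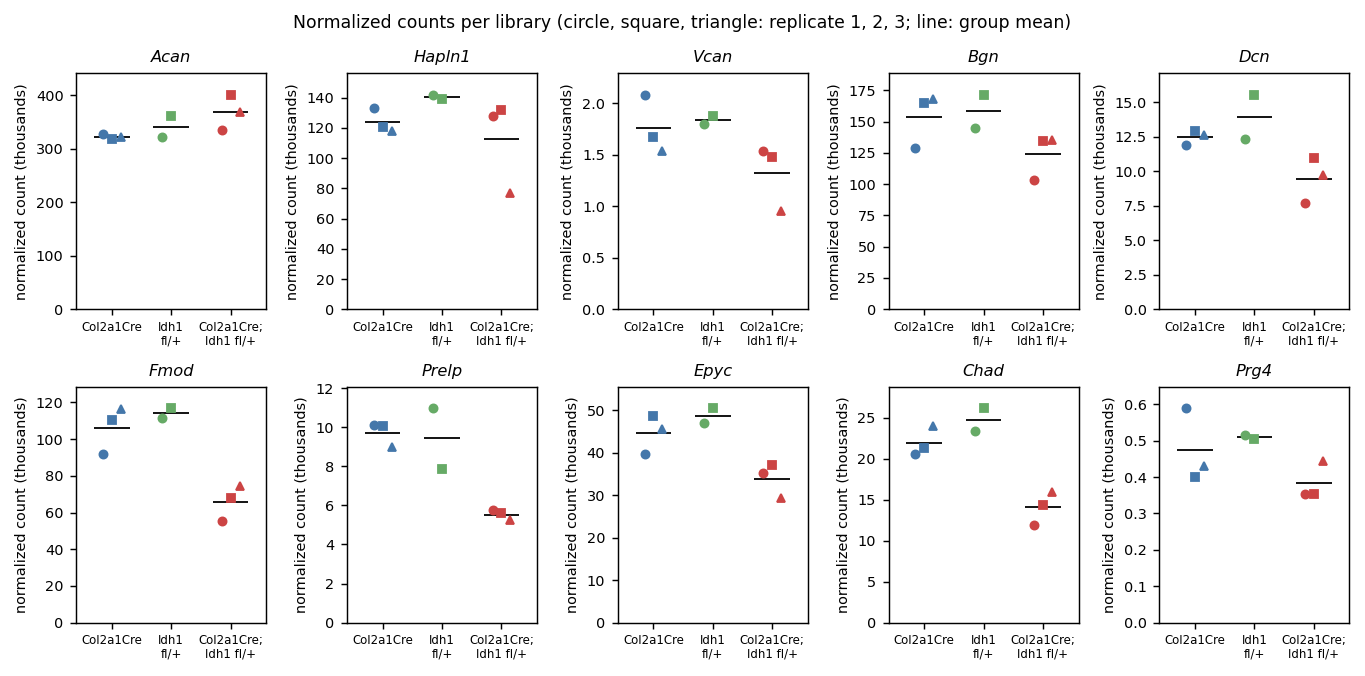
Normalized count, divided by 1000, of each of the 10 genes in each library. Circles, squares and triangles are replicates 1, 2 and 3, the line is the group mean, and each vertical axis starts at 0. The Cre-Idh1 points lie below every control point for Fmod, Prelp, Chad, Epyc and Dcn and narrowly for Vcan, and the Acan points show no such gap.

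The regions before the start sites of the 3 genes that fell against both controls, and of Acan as the gene beside them that passed in neither, are shown with the letters of 2 general promoter motifs in capitals. Each is the 250 bases upstream of the start in RefSeq (build GRCm38.p6), written 5′ to 3′ on the gene's strand. The Prelp window lies at chr1:133921402-133921651 on the minus strand, Fmod at chr1:134037004-134037253, Chad at chr11:94564797-94565046 and Acan at chr7:79052976-79053225, all on the plus strand. Both strands were searched for TATAAA, the letters of a TATA box, and for GGGCGG, the letters of a GC box. The SOX family motif was searched as ACAAAG and, in its other form, as ACAATG.
Prelp: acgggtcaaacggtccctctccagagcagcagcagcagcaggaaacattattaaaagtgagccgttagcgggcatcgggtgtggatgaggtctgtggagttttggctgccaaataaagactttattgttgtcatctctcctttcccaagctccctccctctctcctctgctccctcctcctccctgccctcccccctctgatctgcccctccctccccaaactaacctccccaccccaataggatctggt
Fmod: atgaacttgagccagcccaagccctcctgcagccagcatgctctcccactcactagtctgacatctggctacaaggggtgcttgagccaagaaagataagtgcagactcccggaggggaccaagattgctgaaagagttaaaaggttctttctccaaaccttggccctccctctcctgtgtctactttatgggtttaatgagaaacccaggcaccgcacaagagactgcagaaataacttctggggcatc
Chad: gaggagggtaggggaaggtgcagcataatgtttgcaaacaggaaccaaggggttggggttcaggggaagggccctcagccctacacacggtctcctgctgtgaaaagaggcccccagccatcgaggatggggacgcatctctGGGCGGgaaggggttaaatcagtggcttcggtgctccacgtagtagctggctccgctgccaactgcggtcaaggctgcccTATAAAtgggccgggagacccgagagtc
Acan: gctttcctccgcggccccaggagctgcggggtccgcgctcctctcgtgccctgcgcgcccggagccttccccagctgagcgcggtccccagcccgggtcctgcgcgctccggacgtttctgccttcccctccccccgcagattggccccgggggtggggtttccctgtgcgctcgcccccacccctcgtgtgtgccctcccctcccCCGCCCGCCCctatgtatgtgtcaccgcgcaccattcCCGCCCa

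The Chad window held TATAAA from base −28 and GGGCGG from base −108. The Acan window held GGGCGG on the other strand, printed as its reverse complement, from bases −44, −40 and −7, of which the first 2 overlap. The Fmod and Prelp windows held none of the searched letters. Among the 8 of the 10 genes that matched the promoter table, SOX letters were found only in windows of Epyc. Epyc alone had an additional window listed, and SOX letters lay in each of its windows. TATAAA was present in 12.4%, GGGCGG in 32.7% and a SOX match in 25.2% of all 32851 promoters listed there. The windows of the 3 genes that fell had a GC content of 51.2% (Fmod), 55.6% (Prelp) and 60.4% (Chad), near the median of 52.4% of all promoters, and the Acan window 74.4%. A match of letters is a description and no evidence of binding.

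Acan encodes aggrecan, the core of the aggregate. Its normalized counts were 334689, 401510 and 369859 in Cre-Idh1 replicates 1 to 3, 327065, 318630 and 322310 in the Cre control, and 321713 and 361287 in the floxed control. Every Cre-Idh1 library was above the Cre control, but the lowest lay inside the range of the floxed control. The log2 fold change was 0.19 ± 0.16 (SE; 95% interval −0.18 to 0.56, limma adjusted p = 0.450) against the Cre control and 0.11 ± 0.18 (−0.32 to 0.54, adjusted p = 0.719) against the floxed control. The 95% intervals reached down to a fall by 0.18 and 0.32 on this scale, less than the estimates for Prelp, Fmod and Chad. A 95% interval does not exclude a larger fall, and the differences between genes were not tested.

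Hapln1 encodes link protein, which clamps aggrecan to hyaluronan. It read 127711, 132189 and 77158 in Cre-Idh1 cells, 133319, 120521 and 117869 in the Cre control, and 142001 and 139205 in the floxed control. Cre-Idh1 replicate 3 stood well below every other library, and the other 2 lay within the Cre control's range. The log2 fold change of −0.18 ± 0.21 against the Cre control (limma adjusted p = 0.576) turned to 0.071 without replicate 3, so that library alone set its direction. Against the floxed control it was −0.36 ± 0.24 (adjusted p = 0.340), and −0.11 without replicate 3.

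Vcan encodes versican, the hyaluronan-binding proteoglycan of loose and early connective tissue. It read 1531, 1474 and 957 in Cre-Idh1 cells, 2082, 1671 and 1535 in the Cre control, and 1801 and 1877 in the floxed control. Cre-Idh1 replicate 3 was again the lowest library, and the highest Cre-Idh1 library nearly reached the lowest Cre control library. The fall of 0.43 ± 0.19 on the log2 scale did not pass (limma adjusted p = 0.138), nor did that of 0.51 ± 0.20 against the floxed control (adjusted p = 0.137).

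Fmod encodes fibromodulin, a keratan sulfate proteoglycan on collagen fibrils. It read 55215, 68158 and 74503 in Cre-Idh1 cells, 91913, 110240 and 116355 in the Cre control, and 111345 and 116991 in the floxed control. The highest Cre-Idh1 library stayed below the lowest control library. Fmod was 1.61-fold lower than in the Cre control (log2 −0.69 ± 0.15, limma adjusted p = 0.0152) and 1.74-fold lower than in the floxed control (−0.80 ± 0.16, adjusted p = 0.0181). The first call was lost without Cre control replicate 2 (adjusted p = 0.0618) or 3 (0.0748).

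Prelp encodes PRELP, a leucine-rich protein with a basic end that binds heparan sulfate and collagen. It read 5751, 5605 and 5231 in Cre-Idh1 cells, 10114, 10068 and 8996 in the Cre control, and 10993 and 7887 in the floxed control. The 3 Cre-Idh1 libraries lay close together and below every control library. Prelp was 1.76-fold lower than in the Cre control (log2 −0.81 ± 0.09, limma adjusted p = 0.000607) and 1.69-fold lower than in the floxed control (−0.75 ± 0.15, adjusted p = 0.0176). Against the Cre control the call held with each library left out in turn, with adjusted p from 0.000509 to 0.00531.

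Chad encodes chondroadherin. It read 11928, 14336 and 15986 in Cre-Idh1 cells, 20584, 21324 and 23991 in the Cre control, and 23337 and 26194 in the floxed control. The gap between the highest Cre-Idh1 library and the lowest control library was wider than the spread within either control group. Chad was 1.57-fold lower than in the Cre control (log2 −0.65 ± 0.12, limma adjusted p = 0.00803) and 1.77-fold lower than in the floxed control (−0.82 ± 0.14, adjusted p = 0.0120). Its adjusted p against the Cre control was 0.00251 to 0.0481 with each library left out in turn.

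Epyc encodes epiphycan, a small proteoglycan of growth cartilage, and Dcn encodes decorin, which coats collagen fibrils and binds TGF-beta. Epyc read 35223, 37204 and 29272 in Cre-Idh1 cells, 39642, 48628 and 45511 in the Cre control, and 46955 and 50562 in the floxed control. Dcn read 7699, 10934 and 9723, then 11915, 12871 and 12591, then 12311 and 15535. For both genes every Cre-Idh1 library was below every control library. Epyc was lower by 0.40 ± 0.13 on the log2 scale than in the Cre control and did not pass (limma adjusted p = 0.0586), and fell by 0.53 ± 0.14 against the floxed control (adjusted p = 0.0420). With embryo sex in the fit the Epyc call was lost (adjusted p = 0.0643); both floxed libraries are male and Cre-Idh1 replicate 1 is female. Dcn missed the threshold in both comparisons, with log2 fold changes of −0.41 ± 0.13 (limma adjusted p = 0.0510) and −0.56 ± 0.17 (adjusted p = 0.0675). Both genes passed against both controls in the authors' deposited table (adjusted p for the Cre control 0.00749 for Epyc and 0.0251 for Dcn).

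Bgn encodes biglycan, a close relative of decorin whose gene lies on the X chromosome. It read 103537, 134307 and 135086 in Cre-Idh1 cells, 128611, 164887 and 167986 in the Cre control, and 144896 and 171574 in the floxed control. Within each group 1 library stood below the rest, and the Cre-Idh1 and Cre control ranges overlapped. Neither log2 fold change passed, at −0.31 ± 0.17 (limma adjusted p = 0.231) and −0.35 ± 0.18 (adjusted p = 0.215).

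Prg4 was the lowest of the 10, with 353, 353 and 444 in Cre-Idh1 cells, 590, 401 and 429 in the Cre control, and 515 and 506 in the floxed control. The Cre-Idh1 range overlapped that of the Cre control. Its log2 fold changes were −0.29 ± 0.17 (limma adjusted p = 0.266) and −0.42 ± 0.16 (adjusted p = 0.114). Exons of Prg4 overlap those of Tpr, a nuclear pore gene on the opposite strand, in the GENCODE M21 annotation, and the sources used here do not state whether counting used strand. Prelp and Epyc likewise overlap non-coding genes (Gm15851 and Gm10754) on the opposite strand, so a part of their reads could belong to those genes.

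A comparison of the controls, with 3 and 2 libraries, can miss differences of modest size. Between them 0 of the 10 genes passed by limma, edgeR, DESeq2 or the authors' deposited table, and 0 had an unadjusted limma p under 0.05, beside 0.0134% of the 14870 genes tested that passed by limma. The median log2 fold change of the 10, floxed over Cre control, was 0.12, and only 1 of the 10, Prelp, had a value below 0. Hapln1 was the 1 gene with no overlap between the controls, higher in both floxed libraries, as 14.1% of all genes were.

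**Figure D2:**
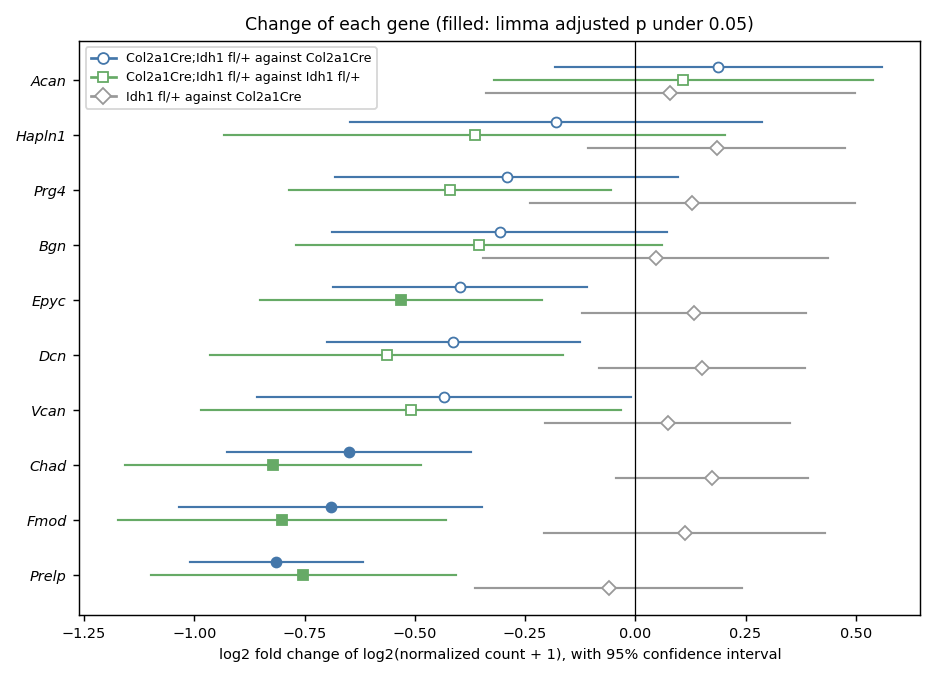
Log2 fold change of each of the 10 genes (horizontal axis, on the log2(normalized count + 1) scale) with its 95% confidence interval, in 3 comparisons. Filled symbols passed limma at an adjusted p under 0.05: Prelp, Fmod and Chad against the Cre control, these and Epyc against the floxed control, and none between the controls (grey).

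Set against aggrecan in the same library, which removes the scaling between libraries, the leucine-rich genes stood lower still. The Fmod count was 16.5% to 20.1% of the Acan count in Cre-Idh1 cells, 28.1% to 36.1% in the Cre control and 32.4% to 34.6% in the floxed control. The Chad count was 3.56% to 4.32%, against 6.29% to 7.44% and 7.25% in both floxed libraries. The Prelp count was 1.40% to 1.72%, against 2.79% to 3.16% and 2.18% to 3.42%. In each case the Cre-Idh1 range ended well under the lowest control library. Bgn, which overlapped in its own counts, did not overlap as a share of Acan, at 30.9% to 36.5% against 39.3% to 52.1% and 45.0% to 47.5%. Of the 9 ratios to Acan 8 were lower without overlap than in the Cre control, as were 35.1% of the 14850 other genes tested, and 9 than in the floxed control, as were 30.5%. Hapln1 overlapped the Cre control, at 20.9% to 38.2% against 36.6% to 40.8%. Acan itself read higher in every Cre-Idh1 library than in the Cre control, which lowers the ratio of any other gene. These ratios were not tested and show unequal change, not which gene of a pair moved.

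**Figure D3:**
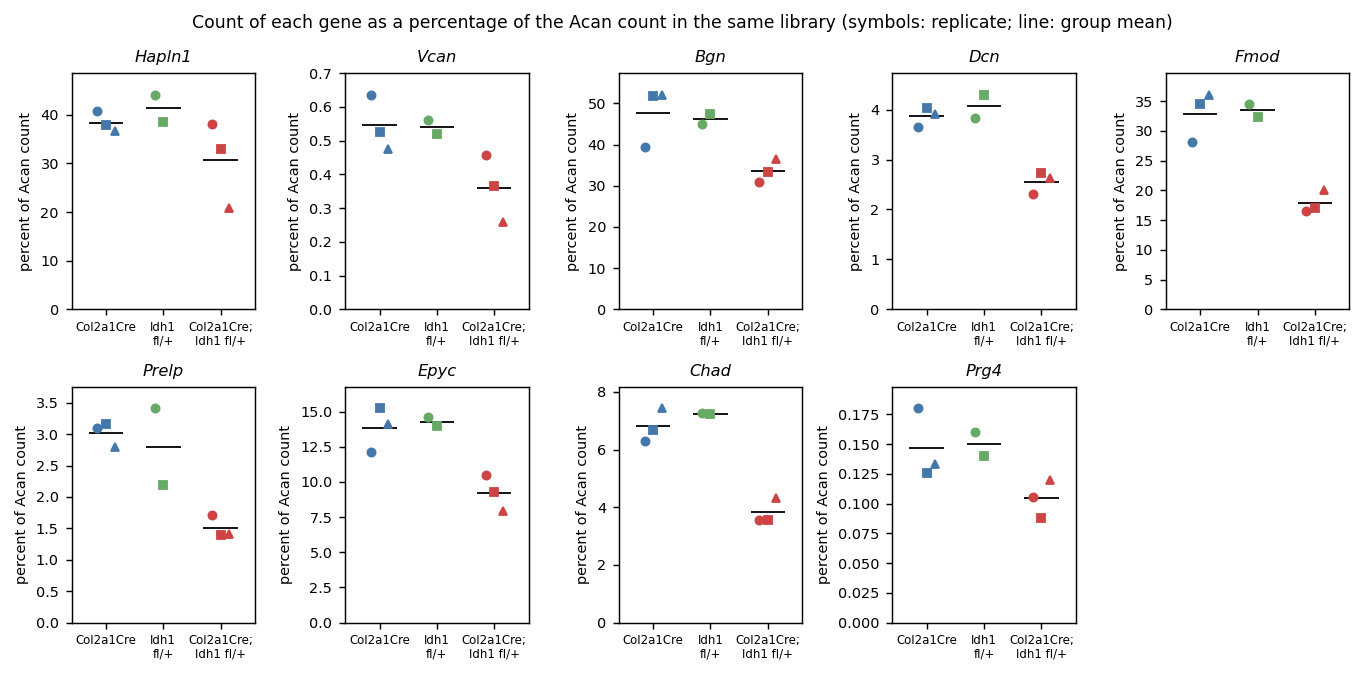
Normalized count of each of 9 genes as a percentage of the Acan count in the same library (vertical axis from 0). Symbols are replicates 1 (circle), 2 (square) and 3 (triangle) and the line is the group mean. The Cre-Idh1 points lie below all control points in 8 of the 9 panels, and Hapln1 overlaps; over all genes such ratios were lower without overlap for 35.1% against the Cre control and 30.5% against the floxed control.

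Per kilobase of the longest coding transcript, the mean normalized count over the 8 libraries was highest for Bgn (59471) and Acan (46857), followed by Fmod (29837), Hapln1 (21653), Epyc (16394), Chad (11732), Dcn (6654) and Prelp (2235). Vcan (130) and Prg4 (105) lay far below the others. Bgn exceeded Acan in 7 of 8 libraries, as Vcan did Prg4, and Fmod exceeded Hapln1 in 6 of 8, so none of these pairs has a settled order. Over the 8 libraries the ranges of Acan and Fmod, of Dcn and Prelp and of Prelp and Vcan did not overlap, and each other pair of neighbours did. The order rests on the length used: per kilobase of all exons joined, Bgn dropped to 23588, below Acan (46142) and Fmod (28158), and Prelp (2235) moved above Dcn (2004).

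Prelp and Fmod lie next to each other on chromosome 1, and Epyc and Dcn flank Lum and Kera on chromosome 10, by gene order in RefSeq. Of 10 tested among 12 other leucine-rich matrix genes 5 fell and 1 rose against each control, with median log2 fold changes of −0.38 (Cre control) and −0.61 (floxed control). Over all genes tested 9.39% fell and 9.8% rose against the Cre control, and 6.96% and 7.47% against the floxed control. None of the 10 passed between the controls, yet the controls differed: the median log2 fold change, floxed over Cre control, was 0.45, and 6 of the 10 were higher in both floxed libraries, as 14.1% of all genes were. Between the controls Aspn stood at 0.67 ± 0.14, Omd at 0.59 ± 0.15, Ogn at 0.53 ± 0.12 and Podn at −0.79 ± 0.19 (limma adjusted p of 0.394 to 0.430). Ecm2, Aspn, Omd and Ogn form an unbroken row on chromosome 13, and all 4 fell against both controls. Ecm2, an adhesive matrix protein, read 454, 559 and 518 in Cre-Idh1 cells, 1116, 1253 and 1232 in the Cre control, and 1469 and 1631 in the floxed control. The groups were far apart, and it fell by 1.24 ± 0.11 (limma adjusted p = 0.000329) and by 1.60 ± 0.14 (adjusted p = 0.00184) on the log2 scale. Omd (osteomodulin, a keratan sulfate proteoglycan of bone) read 1091, 1545 and 664, then 3469, 2457 and 3110, then 4002 and 5048.

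The Omd log2 fold changes were −1.52 ± 0.27 (limma adjusted p = 0.00596) and −2.11 ± 0.32 (adjusted p = 0.00722). Aspn (asporin, which binds collagen and TGF-beta) fell by 0.77 ± 0.16 and by 1.44 ± 0.22, and Ogn (osteoglycin) by 1.03 ± 0.23 and by 1.56 ± 0.30. Lum (lumican, a relative of fibromodulin) was the fifth, with −0.44 ± 0.12 and −0.69 ± 0.15. All 4 genes of the row overlap Cenpp, a centromere gene on the opposite strand, Aspn also in its exons. Podn (podocan) rose, from 277, 274 and 223 in the Cre control and 178 and 124 in the floxed control to 386, 368 and 532. With single libraries left out, Ecm2 and Omd kept their calls against the Cre control, while Aspn lost its call in 1 setting, Ogn in 2, Podn in 3 and Lum in 4. Against the floxed control Ecm2 kept its call in every such setting, and the other 5 lost theirs without floxed replicate 2.

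Among 10 proteases of aggrecan and versican and their inhibitor, 4 rose and 0 fell against the Cre control (median log2 fold change 0.74), and 3 rose and 0 fell against the floxed control (0.45), where 9.8% and 7.47% of all genes rose. Adamts1, which cleaves versican and aggrecan, read 9051, 10970 and 9009 in Cre-Idh1 cells, 3298, 3934 and 3242 in the Cre control, and 3686 and 3374 in the floxed control. Every Cre-Idh1 library stood far above the controls, and it rose by 1.47 ± 0.11 (limma adjusted p = 0.000174) and 1.45 (adjusted p = 0.00181) on the log2 scale. Timp3, the inhibitor of these ADAMTS proteases, rose with it, from 8051 to 9492 and 7588 to 7932 in the controls to 15808 to 17813. The Timp3 log2 fold changes were 0.93 ± 0.10 (limma adjusted p = 0.000560) and 1.09 ± 0.10 (adjusted p = 0.00195). Exons of Timp3 overlap those of Syn3, a protein-coding gene on the opposite strand, so a part of its reads could belong to Syn3. Adamts5, the main aggrecanase of mouse cartilage, rose at a low level, from 32.9 to 42.9 and 39.1 to 40.3 to 74.5 to 77.5, by 0.997 ± 0.217 (limma adjusted p = 0.0147) and 0.92 ± 0.24 (adjusted p = 0.0427). Its calls did not survive leaving out replicate 2 or 3 of the Cre control, either floxed library, or, against the floxed control, Cre-Idh1 replicate 1 or 2. Htra1, a serine protease, rose by 0.45 ± 0.13 against the Cre control (limma adjusted p = 0.0381), a call lost in 4 of the 6 settings with 1 library left out. Adamts1 and Timp3 kept their calls against both controls with any single library left out. The collagenase gene Mmp13 and the remaining ADAMTS genes did not pass.

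Of 10 genes of hyaluronan synthesis, receptors and turnover, 1 rose and 1 fell against each control, near the share over all genes (9.8% rose and 9.39% fell against the Cre control). Cd44, a hyaluronan receptor, read 3284, 2419 and 2146 in Cre-Idh1 cells, 1285, 1544 and 1131 in the Cre control, and 1214 and 1055 in the floxed control. It rose by 0.97 ± 0.17 (limma adjusted p = 0.00557) and 1.18 ± 0.18 (adjusted p = 0.00819) with no overlap. Hyal2, a hyaluronidase, fell by 0.71 ± 0.10 and by 0.82 ± 0.12. The main cartilage synthase gene Has2 did not pass (log2 −0.20 and −0.38). Of 8 other large proteoglycans and link proteins tested, 2 rose against the Cre control and 3 against the floxed control, where 9.8% and 7.47% of all genes rose. Bcan (brevican, 1.45 ± 0.31 and 1.43 ± 0.28) and Hapln4 (a link protein known from brain, 1.35 ± 0.36 and 1.47 ± 0.35) rose against both controls. Cspg4 rose against the floxed control (0.50 ± 0.12, limma adjusted p = 0.0348). None of the 8 fell. With single libraries left out, Cd44, Hyal2 and Bcan kept their calls against the Cre control and lost those against the floxed control without its replicate 2, and Hapln4 lost its call in 4 settings against each control. Cspg4 lost its call in 4 of 5 settings. Bcan stayed low, at 225 to 344 counts against 58.3 to 127 in the Cre control. Hapln4 was lower still, at 37.2 to 57.9 counts. It read 11.4 to 25.3 in the Cre control and 13.7 to 17.5 in the floxed control, near the filter value of 10.

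Among 17 partners of the small leucine-rich proteoglycans 0 rose, 4 fell against the Cre control and 2 fell against the floxed control, where 9.39% and 6.96% of all genes fell. Matn3, a matrilin that bridges collagen to proteoglycans, read 11209, 10348 and 9039 in Cre-Idh1 cells, 21854, 21411 and 20667 in the Cre control, and 25055 and 21596 in the floxed control. All 3 Cre-Idh1 libraries were far below the controls, at log2 −1.07 ± 0.10 (limma adjusted p = 0.000354) and −1.20 (adjusted p = 0.00270). Tgfb2 fell in both comparisons (−0.36 ± 0.08 and −0.68 ± 0.14), and Tgfb3 (−0.35 ± 0.09) and Matn1 (−0.39 ± 0.10) fell against the Cre control. Matn3 kept both calls with any single library left out, while Tgfb2, Tgfb3 and Matn1 each lost theirs against the Cre control in 4 or 5 of 6 such settings. None of the collagen II, VI, IX and XI genes of the list passed. For Col2a1 the limma SE of 0.48 against the Cre control leaves its log2 fold change of 0.15 poorly determined in this fit. The SE also draws on the trend fitted over all genes, so it does not measure the spread of the Col2a1 libraries alone. Of 8 transcription factors 1 fell and 0 rose against each control, where 9.39% and 6.96% of all genes fell. Sox5, a partner of SOX9 at the aggrecan gene, fell by 0.47 ± 0.09 (limma adjusted p = 0.00786) and by 0.55 ± 0.11 (adjusted p = 0.0188). The second call was lost without either floxed library or without Cre-Idh1 replicate 1. Sox9 itself read 34111 to 37347 in Cre-Idh1 cells, 35473 to 36571 in the Cre control and 36146 to 36615 in the floxed control, with log2 fold changes of −0.0046 ± 0.091 and −0.017 ± 0.11. Sox6 missed the threshold (−0.41 ± 0.14, limma adjusted p = 0.0690, and −0.59 ± 0.18, adjusted p = 0.0680). Exons of Tgfb2, Tgfb3 and Sox5 overlap those of other genes on the opposite strand.

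**Figure D4:**
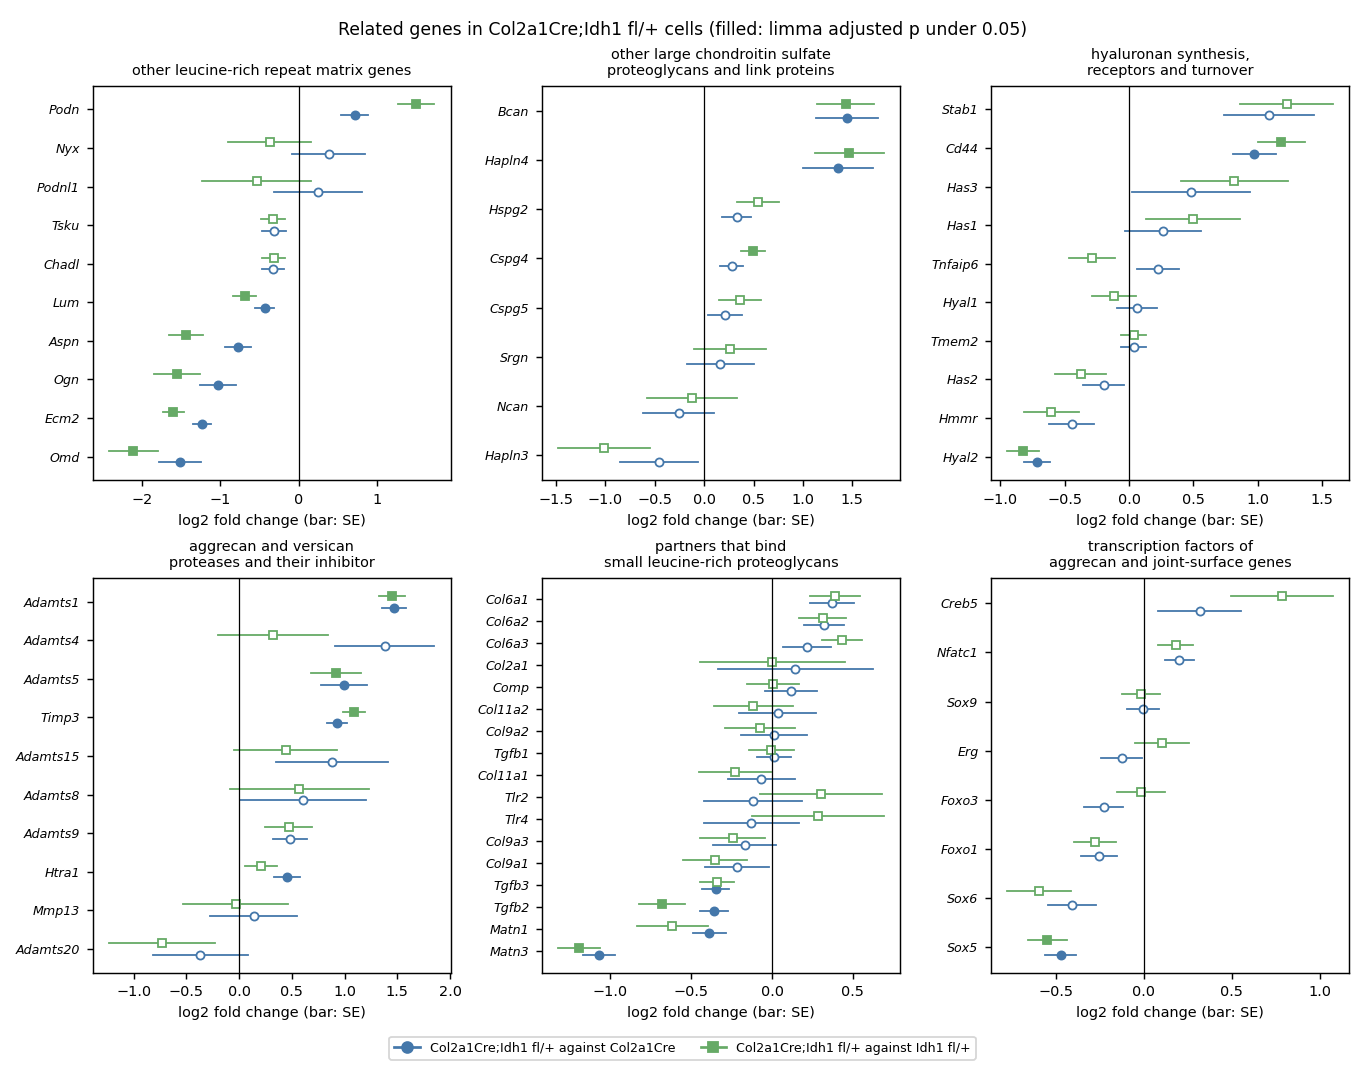
Log2 fold changes (bars: SE) of 6 lists of related genes in Cre-Idh1 cells against the Cre control (circles) and the floxed control (squares); filled symbols passed limma at an adjusted p under 0.05. Ecm2, Omd, Aspn, Ogn, Lum, Matn3, Hyal2, Tgfb2 and Sox5 fell in both comparisons. Adamts1, Timp3, Adamts5, Cd44, Bcan, Hapln4 and Podn rose in both.

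Marker lists of cell types were summed in the same libraries. The 9 listed chondrocyte markers, dominated by Col2a1, overlapped between all groups in their summed normalized count, and so did the 12 fibroblast and perichondrium markers (117174 to 174182, 93906 to 156367 and 135993 to 165410 in Cre-Idh1 cells, the Cre control and the floxed control). Within the fibroblast list Pdgfra (a PDGF receptor; log2 −0.99 ± 0.10 and −0.93 ± 0.15, limma adjusted p = 0.000450 and 0.00868) and Prrx1 (a mesenchymal transcription factor; −0.92 ± 0.10 and −1.17 ± 0.12, adjusted p = 0.000592 and 0.00231) fell against both controls, and Twist2 rose in both. The sum of 8 osteoblast markers was 7310 to 10573, 13948 to 15519 and 16516 to 20721, lower in every Cre-Idh1 library. Smpd3 alone made up 64.8% to 75.8% of it in the Cre control, and without Smpd3 the sums overlapped (2420 to 6180, 3680 to 4921 and 4272 to 6505). Of 7 tested 4 fell against the Cre control (Smpd3, Phex, Sp7 and Alpl) and Smpd3, Phex and Sp7 against the floxed control. Over all genes tested 9.39% fell and 9.8% rose against the Cre control, and 6.96% and 7.47% against the floxed control. The bone matrix genes Ibsp (log2 1.70 ± 0.78 and 0.80 ± 0.79) and Dmp1 (0.60 ± 0.42 and 0.088 ± 0.53) did not pass. The sum of 5 hypertrophic chondrocyte markers was 49001 to 73210, 80369 to 91017 and 76597 to 135722, lower in every Cre-Idh1 library. Of the 5, Pth1r and Col10a1 fell in both comparisons. Spp1 (log2 −0.30 ± 0.20 and −0.40 ± 0.33), Ihh (0.0036 ± 0.11 and −0.20 ± 0.17) and Mmp13 (0.14 ± 0.41 and −0.034 ± 0.50) did not pass. The sum of 7 skeletal muscle markers was 405 to 529, 1488 to 1559 and 1884 to 2110, and Tnnt3 made up at least 93.9% of it in each Cre control library. Tnnt3 fell in both comparisons while Acta1 rose against the Cre control. Without Tnnt3 the sums were 214 to 330, 74.5 to 90.6 and 72.7 to 519, higher in Cre-Idh1 cells than in the Cre control. The sum of 7 macrophage markers was 3132 to 7179, 1835 to 3781 and 2191 to 2881. Cd68, C1qa, C1qb and C1qc rose against both controls and Csf1r against the floxed control. In the controls C1qa, C1qb and C1qc were near the filter value of 10, at 5.17 to 18.3. Lyz2, which made up 64.1% to 82.2% of the macrophage sum over all libraries, did not pass (log2 0.60 ± 0.37 and 0.67 ± 0.39). Without Lyz2 the macrophage sums were 892 to 1677, 477 to 762 and 514 to 589, higher in every Cre-Idh1 library than in the controls. The sum of 6 endothelial markers was 264 to 804, 224 to 306 and 252 to 336, with 0 called by limma.

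The 5 tendon markers summed to 337 to 745, 319 to 575 and 530 to 590, and Mkx fell in both comparisons. The 5 joint surface and synovium markers summed to 442 to 481, 474 to 558 and 507 to 697, where Thbd rose and Gdf5 fell against the Cre control. Gdf5 made up 60.6% to 90.6% of this sum over all libraries. Without Gdf5 the sums were 122 to 189, 79.7 to 106 and 65.7 to 103, higher in every Cre-Idh1 library than in the controls. With 1 library left out, the calls against the Cre control were lost in 5 of 6 settings for Thbd and C1qa, in 4 for Gdf5, Col10a1, Sp7, Alpl and Twist2, in 3 for C1qc, in 2 for Cd68 and in 1 for Mkx. Against the floxed control Smpd3, Prrx1, Pth1r and Tnnt3 kept their calls in every such setting. No marker was at 0 in all libraries of a group; Kera and the muscle genes Myh8 and Ckm were at 0 in single libraries. The part of these cell types in the falls of Prelp, Fmod, Chad and Epyc was not tested.

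**Figure D5:**
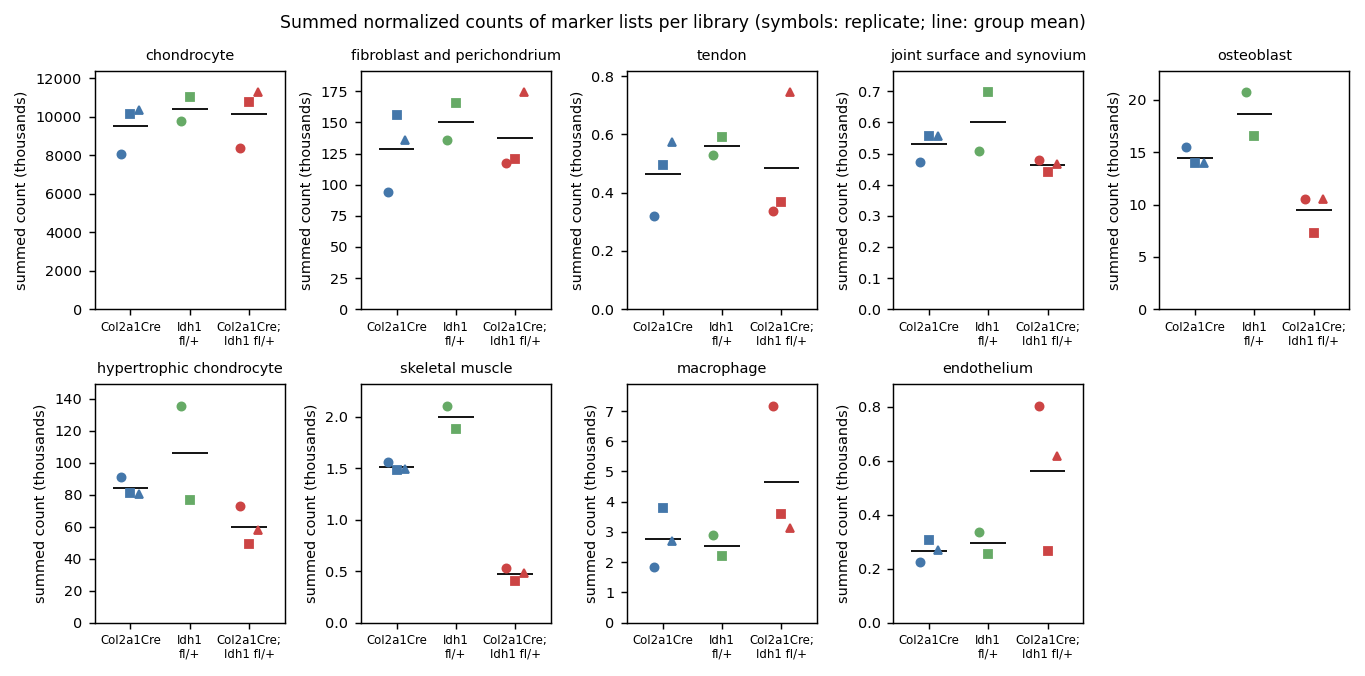
Summed normalized count, divided by 1000, of each of 9 marker lists per library (vertical axis from 0; circle, square and triangle are replicates 1, 2 and 3, the line is the group mean). The Cre-Idh1 points lie below all control points for the osteoblast, hypertrophic chondrocyte and skeletal muscle lists; the osteoblast and muscle sums of the controls are mostly Smpd3 and Tnnt3, and without these genes they are not lower throughout.

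Over the 8 libraries, likeness was measured as the mean absolute difference of z-scored log2 values among 11186 genes with a mean of at least 100. The gene nearest to Acan was Pir (0.170), a nuclear iron-binding protein, with group means of 712 in Cre-Idh1 cells, 600 in the Cre control and 636 in the floxed control. Ntrk2, a neurotrophin receptor gene, came next (0.212), then AC110520.1 (0.218). For Dcn they were Nudt5 (0.170), 4632415L05Rik (0.186) and Steap2 (0.198), and for Prg4 Tubgcp6 (0.254), Myo9b (0.270) and Tmem19 (0.276). The 8 points share the groups, so likeness follows the group differences as well as the spread within groups.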

How the data were processed

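mRNA libraries were made with a KAPA stranded kit, per the labels' protocols. The deposited signal is the authors' normalized count per gene and library, with their log2 fold change, test statistic (a score), p-value and adjusted p-value for each pair of groups, per the file headers. The submitters' processing notes name cutadapt, Trim Galore, STAR, HTSeq and DESeq2; versions, build and strand setting: not given in the sources used here. Each library's deposited values are whole multiples of what 1 read is worth there, and 100% gave whole read counts within 0.001 reads. Values of a library were the same in every table that held it.

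Genes that reached 10 in no fewer libraries than the size of the smaller group were tested with limma 3.58.1 (trend, log2(value + 1), R 4.3.3) within each pair of groups, two-sided, with Benjamini-Hochberg adjustment over all of them. Fold changes on this scale understate changes of low genes. Alternatives were edgeR 4.0.16 and DESeq2 1.42.0 on recovered reads, the authors' p, other pseudocounts, filters and scalings, a joint fit, embryo sex and leaving out single libraries. The test was tried on simulated data with known changes. Lengths and overlaps came from GENCODE M21. Replicates were numbered in record order and pair nothing. No batch is given in the labels.

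The 10 genes and all lists were chosen with earlier results of these data known. The 10 were all named. Of each list, called genes with the lowest adjusted p were named, at most 4 per comparison, plus genes of counts of 5 or fewer. Genes of marker lists were named where called. Sox9, Sox6, Has2, Mmp13, Col2a1, Ibsp, Dmp1, Spp1, Ihh and Lyz2 were added after their values were seen. Hapln2, Lyve1, Stab2, Cemip, Snorc, Myog and Adgre1, which the lists also name, were not analysed here. The libraries held 31860422 to 44988540 recovered reads.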

Additional observations from a re-analysis of the deposited data

How the results depend on the processing

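Over the 30 changes of single members, 445 results under other settings kept their direction and their side of the threshold, 22 passed only under the other setting, 14 passed only in the main test and 9 changed sign. The number of members called against the Cre control, 3, was 5 (Dcn and Epyc added) under DESeq2, the authors' deposited table, TMM, no scaling beyond library size and an adjusted p under 0.1, and 2 to 4 with 1 library left out. Against the floxed control, 4 became 0 to 6: 0 without floxed replicate 1, 1 (Prelp) without floxed replicate 2, 2 without Cre-Idh1 replicate 2 and 6 without Cre-Idh1 replicate 3. With 1 library left in an arm, limma assumes that it varies like the others. Genes called against the Cre control numbered 2849, 1898 with embryo sex and 1168 to 3854 with 1 library left out. Against the floxed control they numbered 2196, 4095 in the authors' table, 3596 in 1 fit of 8 libraries, 1434 with embryo sex, 3554 at an adjusted p under 0.1 and 186 to 3752 with 1 library left out. Between the controls they numbered 2, 86 by DESeq2, 36 in the authors' table, 1 in the joint fit, 1 with embryo sex and 1 to 102 with 1 library left out. Fewer samples were tested when libraries were left out; the causes of the other shifts were not tested.

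Signs turned where no call was made. Against the Cre control, Hapln1 ran from −0.32 to 0.071 with 1 library left out, the latter without Cre-Idh1 replicate 3. Between the controls Bgn turned to −0.018 without scaling and −0.065 with embryo sex. With 1 library left out, the log2 fold changes between the controls ran from −0.078 to 0.17 for Bgn, −0.021 to 0.20 for Vcan, −0.0042 to 0.16 for Acan, −0.016 to 0.32 for Dcn and −0.30 to 0.18 for Prelp. No paired analysis was possible because the replicate numbers follow record order and the labels pair no libraries.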
